A study of Mus musculus with 3 samples.

Results

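Microvillus cytoskeleton and adhesion genes are described here by the ESRRA peaks that lie around them in mouse duodenal villus cells. The set held 10 genes chosen by name: Vil1, Ezr, Eps8, Espn, Myo1a, Myo7b, Cdhr2, Cdhr5, Pls1 and Krt20. All 10 were in the annotation. A peak was given to a gene when its midpoint lay within 30 kb of any annotated transcript start site of that gene, which is the distance over which the study linked binding to genes. By this rule 17 of the 1639 ESRRA peaks belonged to 5 of the 10 genes, and the other 5 genes had none. ESRRA, the estrogen-related receptor alpha, is a nuclear receptor that binds DNA and is known as an activator of mitochondrial genes. Its binding was measured by ChIP-seq on villus cells from the duodenal epithelium of WT C57BL/6 mice fed regular chow, with an antibody against Esrra in 2 libraries and with 1 input library of chromatin. The sources used here give no age, and do not say whether the libraries came from separate animals. The authors called peaks on both ChIP libraries after merging them, so that 1 list of peaks was available, with no peak height and no replicate error. Every count below is therefore a description of that list, with no test.

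The microvilli of an enterocyte form the brush border, the absorbing surface of the villus. Each microvillus has a core of parallel actin filaments that villin (Vil1), plastin 1 (Pls1) and espin (Espn) bundle, while Eps8 sits at the tip and acts on the growing filament ends. Myosin 1a (Myo1a) and ezrin (Ezr) tie the core to the membrane around it. The protocadherins Cdhr2 and Cdhr5 link the tips of neighbouring microvilli, and myosin 7b (Myo7b) carries their adhesion complex. Keratin 20 (Krt20) is an intermediate filament protein of differentiated enterocytes and lies outside the microvillus itself. ESRR proteins are known to bind TCAAGGTCA, called the ESRR half-site here. AAGGTCA, its shorter form, is called the extended half-site, and AGGTCA is the core shared by many nuclear receptors.

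The sequences that carry an exact match to a half-site or its core are shown first. Near matches without AGGTCA, in Vil1 peak 1 and Eps8 peak 1 among others, had fewer mismatches to TCAAGGTCA than some of these. TCAAGGTCA was held by 1 of the 17 peaks, the one in Myo1a, where 14.3% of all peaks held it. AAGGTCA was held by that peak and 4 others, 3 at Ezr and 1 at Krt20, where 44.0% of all peaks held it. The Eps8 peak at a start site held only the core AGGTCA. Each sequence has 41 bases of the mm9 genome, is written 5′ to 3′ on the strand of the half-site, and has in capitals the 9 bases that end with the half-site.
Myo1a peak 1, chr10:127144920-127144960, plus strand: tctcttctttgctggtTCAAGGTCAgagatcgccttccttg
Ezr peak 3, chr17:6981551-6981591, minus strand: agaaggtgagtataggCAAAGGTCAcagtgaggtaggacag
Ezr peak 4, chr17:6971389-6971429, minus strand: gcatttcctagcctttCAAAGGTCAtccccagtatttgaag
Ezr peak 6, chr17:6939329-6939369, minus strand: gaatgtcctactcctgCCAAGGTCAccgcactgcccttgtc
Krt20 peak 1, chr11:99299469-99299509, minus strand: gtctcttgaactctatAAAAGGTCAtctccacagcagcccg
Eps8 peak 1, chr6:137518986-137519026, plus strand: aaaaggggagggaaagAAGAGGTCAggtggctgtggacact
The Myo1a site had no mismatch to TCAAGGTCA. The Ezr peak 6 site had 1 mismatch (T1C, counted from the 5′ end of TCAAGGTCA), and the sites in Ezr peaks 3 and 4 shared the same 9 bases, with 2 mismatches. The Krt20 site had 2 mismatches and the Eps8 site 3. The Ezr and Krt20 half-sites were on the minus strand, from which both genes are transcribed, and the Myo1a half-site was on the plus strand, as is Myo1a. The Eps8 core lay on the plus strand, opposite to that gene.

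Peaks were present at 5 of the 10 genes (50.0%), where 8.75% of the 22367 protein-coding genes had a peak within 30 kb (95% Wilson interval 8.38 to 9.12%). The genes with peaks were Ezr with 6, Krt20 with 5, Vil1 with 3, Eps8 with 2 and Myo1a with 1. The genes without a peak were Espn, Pls1, Myo7b, Cdhr2 and Cdhr5. The genes with peaks thus included 1 of the 3 bundling proteins, the tip protein, 1 of the 2 myosins, the membrane linker and the keratin, and neither of the protocadherins. A midpoint within 1 kb of a start site was found at 4 genes, Vil1, Ezr, Eps8 and Krt20, where 2.08% of protein-coding genes had one. The 4 genes with 2 or more peaks compare with 2.05% of protein-coding genes, and Ezr and Krt20, with 5 or more, with 0.179%. Only 17 protein-coding genes had more peaks within 30 kb than Ezr, and 21 had more than Krt20. The genes of the set were chosen with earlier results of these data known, and they were not chosen at random.

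**Figure D1:**
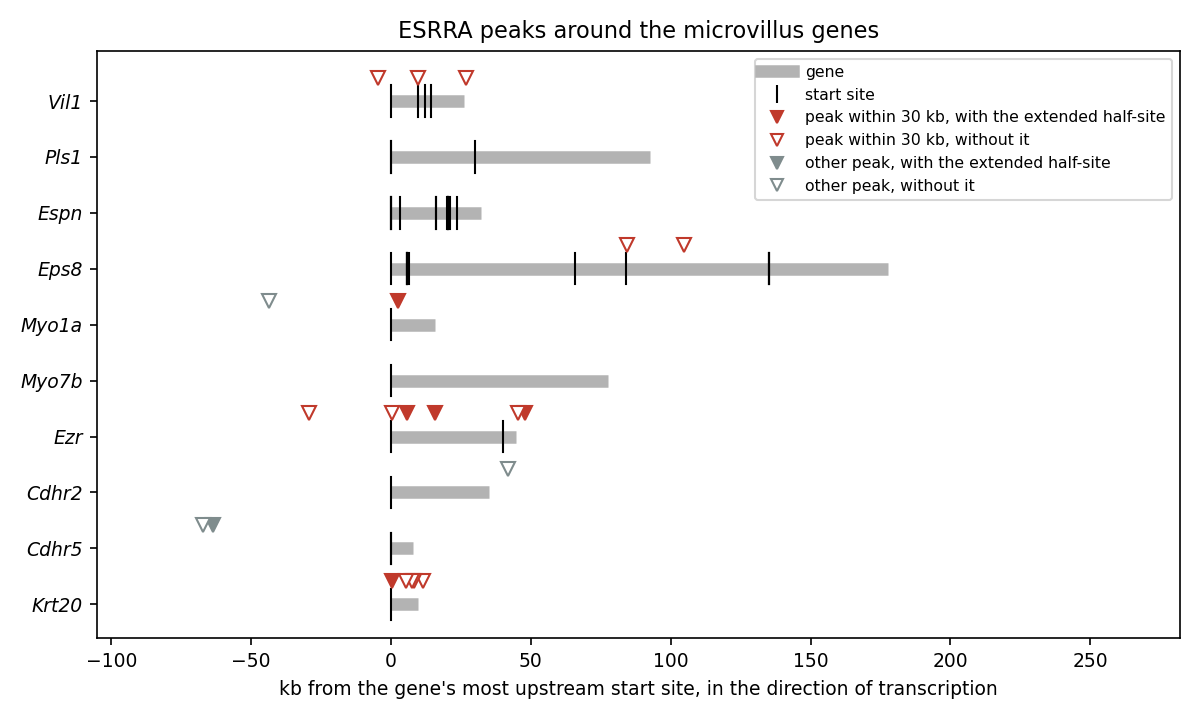
Each row is 1 gene, drawn to scale as a grey bar from its most upstream start site (0 kb) in the direction of transcription, with black ticks at all annotated start sites and triangles at peak midpoints up to 100 kb beyond either end of the gene. Red triangles are the 17 peaks within 30 kb of a start site and filled ones hold the extended half-site. Of the 6 peaks of Ezr 3 lie in the gene, and of the 5 of Krt20 4 do, while Espn, Pls1 and Myo7b have no triangle.

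Villin, a bundling protein of the actin core, had 3 peaks, none of them with AGGTCA. Vil1 lies on the plus strand at chr1:74455950-74482133 and has 4 annotated start sites. Vil1 peak 1 (chr1:74450972-74451572) was in intergenic sequence 4678 bp upstream of the most upstream start site. Vil1 peak 2 (chr1:74465257-74465857) was in intron 4 of Vil1-001, the transcript with the longest coding sequence. Its midpoint was 70 bp upstream of the start site of a shorter coding transcript, and 9607 bp downstream of the start of Vil1-001. This peak therefore counted as a promoter peak through an internal start site only. Vil1 peak 3 (chr1:74482568-74483168) was 735 bp past the 3′ end of the gene, in an untranslated exon of Usp37, a gene for a ubiquitin protease. The nearest Vil1 start site to this peak, that of a transcript with a retained intron, was 12608 bp away. The start of Vil1-001, at 26918 bp, was also within the limit.

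The closest letters to the ESRR half-site in the Vil1 peaks lay in peak 1, where 9 bases 10 bp from the midpoint differed from TCAAGGTCA by A4C and so lacked the core AGGTCA. A best match with 1 mismatch was found in 3 of the 17 peaks. It was found in 32.0% of all peaks and in 18.7% of windows of the same width 2 kb to each side. These 41 bases, with the 9 in capitals, show the near match in Vil1 peak 1.
Vil1 peak 1, chr1:74451242-74451282, plus strand: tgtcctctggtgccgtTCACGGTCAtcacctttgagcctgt
The central 101 bases of Vil1 peak 2, the peak at the internal start site, are given because they hold none of the half-sites.
Vil1 peak 2, chr1:74465507-74465607, plus strand: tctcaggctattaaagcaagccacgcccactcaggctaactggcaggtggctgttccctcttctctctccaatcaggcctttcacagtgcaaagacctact

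The other bundling proteins were far from any peak. Espn (chr4:151494440-151526480, minus strand) has 13 annotated start sites, more than any other gene of the set, and its nearest peak was 1214 kb away, beside a start site of Tnfrsf9. For 75.3% of protein-coding genes a peak was at least as near. Pls1 (chr9:95653061-95745730, minus strand) had its nearest peak at 1051 kb, and 72.0% of protein-coding genes had a peak at least as near. Eps8, the tip protein, had 2 peaks within 30 kb, both in intron 2 of Eps8-001. Eps8 (chr6:137425766-137603397, minus strand) is the longest gene of the set at 177.6 kb, with 11 start sites. Eps8 peak 1 (chr6:137518632-137519232) was 606 bp downstream of an internal start site of a coding transcript and 84465 bp downstream of the most upstream start site. Eps8 peak 2 (chr6:137498495-137499095) was 20743 bp downstream of the same internal start site. Beside its core half-site, Eps8 peak 1 held a near match to TCAAGGTCA that differed by A9T, 207 bp from the midpoint. Eps8 peak 2 held no AGGTCA.

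Of the myosins, Myo1a, the motor that ties the actin core to the membrane, had 1 peak (chr10:127144606-127145206), 2680 bp downstream of its single start site, in intron 7 of Myo1a-201, which has 27 exons. The gene lies on the plus strand at chr10:127142226-127157943. The half-site TCAAGGTCA was 34 bp from the midpoint of the peak, in the intron, and 99 of the 601 bases were coding. The next peak was 46347 bp away, so that this was the only peak of the set with no other within 30 kb. The start site of Tac2, a tachykinin gene, lay 17542 bp from it. The central 101 bases show the half-site near the middle of the peak.
Myo1a peak 1, chr10:127144856-127144956, plus strand: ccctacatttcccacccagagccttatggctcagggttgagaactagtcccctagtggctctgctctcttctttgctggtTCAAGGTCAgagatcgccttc

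Ezrin had the most peaks of the set. Ezr lies on the minus strand at chr17:6942390-6987133, with 2 start sites, of which the upstream starts the coding transcript Ezr-001. Ezr peak 2 (chr17:6986436-6987036) was at that start site, its midpoint lying 397 bp inside the gene, in intron 1. Ezr peaks 3 (chr17:6981231-6981831) and 4 (chr17:6971046-6971646) lay further along the same intron, 5602 and 15787 bp from the start site. Both held CAAAGGTCA, 40 and 63 bp from the midpoint. The peak at the start site held no AGGTCA, and its central 101 bases are given for comparison with peaks 3 and 4.
Ezr peak 2, chr17:6986686-6986786, minus strand: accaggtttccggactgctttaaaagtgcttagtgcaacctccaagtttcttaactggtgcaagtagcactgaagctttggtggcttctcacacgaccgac
Ezr peaks 5 (chr17:6941439-6942039) and 6 (chr17:6939012-6939612) lay 651 and 3078 bp past the 3′ end of Ezr, inside an intron of Sytl3, a gene of vesicle trafficking. Both were 45394 bp or more from the start site of Ezr-001 and were given to Ezr through the start site of a processed transcript near its 3′ end, 5431 and 7858 bp away. Without start sites of noncoding transcripts Ezr had 4 peaks. Ezr peak 1 (chr17:7016297-7016897) was upstream, at 29464 bp, in an intron of the noncoding gene Gm2885. It was the peak nearest to the limit on its inner side, and the nearest gene outside the limit was Cdhr2 at 41.7 kb.

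The protocadherins had no peak within 30 kb, and were the 2 genes closest to the limit among those without one. Cdhr2 (chr13:54802822-54838023, plus strand) had its nearest peak 41723 bp downstream of its start site, past the 3′ end of the gene, and the nearest coding start site to that peak was that of Gprin1, 6485 bp away. Counted over the whole gene plus 30 kb on each side, Cdhr2 also had a peak. This made 6 genes of the set, where 10.3% of protein-coding genes had one. Cdhr5 (chr7:148454984-148462685, minus strand) had its nearest peak 63485 bp upstream. That peak lay inside Eps8l2, a relative of Eps8, 1265 bp from a start site of that gene. A peak was at least as near for 10.9% of protein-coding genes at Cdhr2 and for 14.5% at Cdhr5. Myo7b, the motor of their adhesion complex (minus strand), had its nearest peak 339 kb upstream, 906 bp from a start site of Bin1, and 43.0% of protein-coding genes had a peak at least as near.

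Keratin 20 had 5 peaks, of which 4 lay in the gene, 9.7 kb long, and 1 past its 3′ end. Krt20 lies on the minus strand at chr11:99289717-99299464 and has 1 start site. Krt20 peak 1 (chr11:99298929-99299529) was centred 235 bp inside the gene, in exon 1, and 411 of its 601 bases were coding. Krt20 peak 2 (chr11:99293930-99294530) was in exon 3, peak 3 (chr11:99291632-99292232) in intron 6 and peak 4 (chr11:99290840-99291440) in intron 7. Krt20 peak 5 (chr11:99287750-99288350) was 1667 bp past the 3′ end. The gaps between the 5 midpoints ranged from 792 to 4999 bp. Peaks 4 and 5 were nearer to the start site of Krt12, a cornea keratin, at 7567 and 4477 bp, than to that of Krt20, at 8324 and 11414 bp.

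The only AAGGTCA among the Krt20 peaks was far from a midpoint, at 260 bp in peak 1. The 9 bases in capitals covered positions 21 to 29 upstream of the start site. They overlapped the letters TATAAA, which began 32 bp upstream of the start site on the strand of the gene. TATAAA starting 40 to 20 bp upstream of the most upstream start site was found at 2.38% of the 22367 protein-coding genes, and at 1 of the 10 genes of the set. This search was added after the sequence had been seen. The match is given as a description of the letters.

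**Figure D2:**
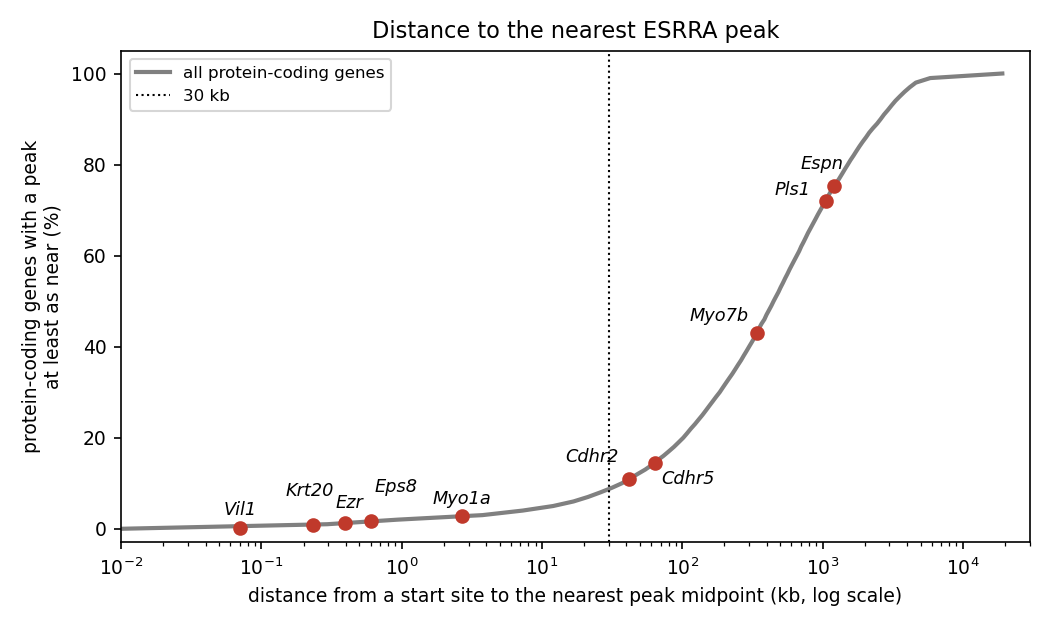
Each red point is 1 gene of the set, at the distance from its start sites to the nearest peak midpoint (x axis, kb, log scale) and the percentage of protein-coding genes with a peak at least as near (y axis), and the grey line gives this percentage for all 22367 protein-coding genes. The 5 genes left of the dotted 30 kb line lie between 70 and 2680 bp, and the other 5 between 41.7 and 1214 kb.

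In order of the distance to the nearest peak, the genes were Vil1 (70 bp), Krt20 (235 bp), Ezr (397 bp), Eps8 (606 bp), Myo1a (2680 bp), Cdhr2 (41.7 kb), Cdhr5 (63.5 kb), Myo7b (339 kb), Pls1 (1051 kb) and Espn (1214 kb). For the first 2 the start site lay inside the peak, which was 601 bp wide. The median over the 10 genes was 22.2 kb, against 447.8 kb over all protein-coding genes. Over all annotated start sites, the set divided into genes with a peak within 3 kb and genes with none within 40 kb. This division rested on internal start sites. From the most upstream start site alone, the nearest peak was 4.7 kb away for Vil1 and 84.5 kb for Eps8. Within 10 kb the number of genes with a peak was again 5, where 4.64% of protein-coding genes had one. Within 100 kb it was 7, where 19.8% of protein-coding genes had one.

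The 17 peaks lay mostly inside genes and next to each other. The midpoint was inside the gene of the set in 11, upstream of it in 2 and past its 3′ end in 4, and those 4 were at Vil1, Ezr and Krt20. Midpoints in an intron of any gene made up 70.6% of the 17 peaks, against 41.1% of all peaks. Intergenic midpoints made up 11.8%, against 41.1%. The rule itself leaves out peaks far from start sites, so it favours peaks in genes. Midpoints within 1 kb of a start site of any gene made up 4 of the 17 peaks, against 29.8% of all peaks. All but the Myo1a peak had another peak within 30 kb, that is 16 of 17 peaks, where this was so for 36.4% of all peaks. The rule also favours peaks with a neighbour, since it gathers those around the same start site. The GC content ranged from 40.4 to 56.2%, with a median of 49.8%, against 48.8% over all peaks. The median copy number of the 24-base words was 1 in each of the 17 peaks, while 19.8% of all peaks were multi-copy, with a median above 10 copies in the genome.

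AAGGTCA was found in 5 of the 17 peaks (29.4%, 95% Wilson interval 13.3 to 53.1%), against 44.0% of all peaks and 12.1% of 3107 flanking windows of the same width. TCAAGGTCA was found in 1 (5.88%, 1.05 to 27.0%), against 14.3% of all peaks and 1.64% of flanking windows. Both intervals include the share over all peaks, and that for AAGGTCA lies above the share in the flanks. In the 27 flanking windows of the 17 peaks, AAGGTCA was found in 1 and TCAAGGTCA in 0. The core AGGTCA was present in 6 of the 17 peaks (35.3%, 17.3 to 58.7%), against 61.4% of all peaks, which lies above this interval, and 32.3% of the flanks, which lies within it. None of the 17 peaks was multi-copy. Over the 1315 peaks that were not multi-copy, 51.4% held AAGGTCA, 17.7% TCAAGGTCA and 69.9% AGGTCA. The shares for AAGGTCA and TCAAGGTCA lie within their intervals, and that for AGGTCA lies above its interval. TNAAGGTCA, with the second base free, was found in the Myo1a peak alone, against 20.4% of all peaks. The remaining 11 peaks, among them all 3 at Vil1 and 4 of 5 at Krt20, thus held no exact half-site on either strand.

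**Figure D3:**
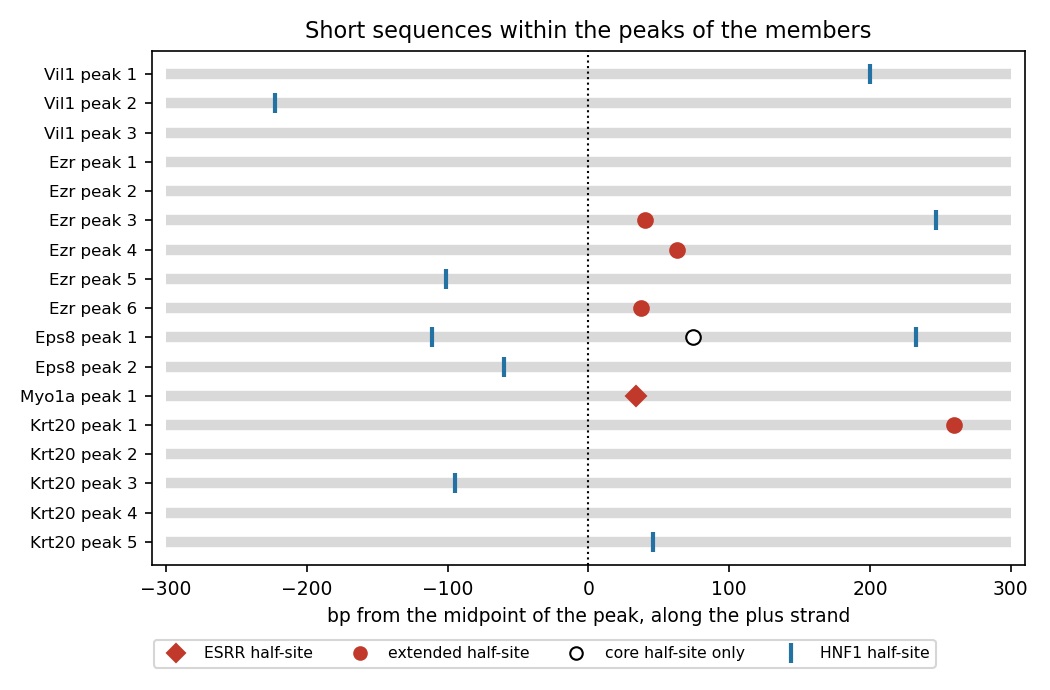
Each grey bar is 1 of the 17 peaks, 601 bp wide, with the midpoint at 0 bp and symbols at the exact matches on either strand. The ESRR half-site of Myo1a and the extended half-sites of Ezr lie 34 to 63 bp from the midpoint, the Krt20 site at 260 bp, and 11 bars hold no half-site.

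Of the 5 AAGGTCA sites, 4 lay within 75 bp of the midpoint, a distance chosen after the positions were seen. This compares with 46.6% of the 1041 sites in all peaks and 23.2% of the 400 sites in flanking windows. A run is taken here as consecutive peaks with gaps of at most 30 kb. Of the peaks that were not multi-copy, 25.7% of 144 held AAGGTCA where a run had at least 5, and 60.8% of 780 where no peak lay within 30 kb. The share was 49.6% of 224 in runs of 2 and 32.3% of 167 in runs of 3 to 4. In the set AAGGTCA was held by 4 of 11 peaks at Ezr and Krt20, which were in runs of at least 5. It was held by 0 of 5 at Vil1, in a run of 3, and Eps8, in a run of 2, and by the Myo1a peak.

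Among other sequences bound by factors of the intestine, GTTAAT, a half-site of the HNF1 factors, had the highest share in these peaks of the 11 sequences searched. It was found in 8 of the 17 peaks (47.1%, 26.2 to 69.0%), against 17.3% of all peaks, 17.0% of all flanking windows and 22.2% of the 27 flanks of these peaks. The 8 peaks were Vil1 peaks 1 and 2, Ezr peaks 3 and 5, both Eps8 peaks and Krt20 peaks 3 and 5, so that it was present at each gene with a peak except Myo1a. The share over all peaks lies below the interval, but no test was made. The interval allows neither for the 11 sequences searched nor for peaks that share a gene. The 9 sites were 46 to 247 bp from the midpoint. Ezr peak 5 and Krt20 peak 3 held the site without an exact half-site but are not printed. The following 36 bases show the site in the other such peaks, with GTTAAT in capitals.
Vil1 peak 1, chr1:74451455-74451490, plus strand: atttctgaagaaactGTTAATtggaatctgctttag
Vil1 peak 2, chr1:74465317-74465352, plus strand: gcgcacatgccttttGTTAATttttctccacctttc
Eps8 peak 2, chr6:137498718-137498753, minus strand: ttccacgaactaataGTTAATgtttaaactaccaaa
Krt20 peak 5, chr11:99288079-99288114, plus strand: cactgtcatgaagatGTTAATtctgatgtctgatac
The AP-1 sequence TGANTCA was found in 5 peaks (29.4%, all peaks 17.4%), the GATA sequence AGATAA in 3 (17.6%, all peaks 27.5%) and the CDX sequence TTTATGG in 2 (11.8%, all peaks 6.59%). The HNF4 sequence CAAAGTCCA, the SP/KLF sequence GGGCGGGG and the reversed control ACTGGAACT were each found in 0 of 17, and 9.27% of all peaks held GGGCGGGG, 2.56% CAAAGTCCA and 0.427% the control. With 17 peaks, an observed share of 0 allows up to 18.4% (Wilson), so these differences were not detectable.

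**Figure D4:**
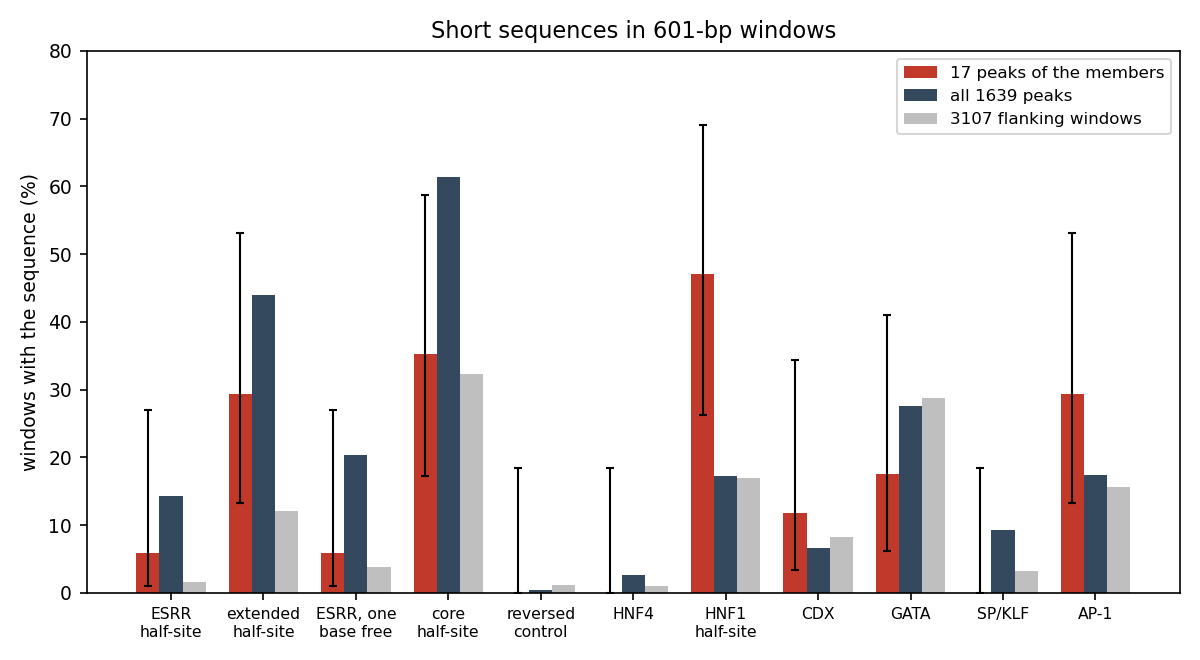
Bars give the percentage of 601-bp windows with each sequence on either strand for the 17 peaks of the set (red, with 95% Wilson intervals), all 1639 peaks (dark) and 3107 flanking windows (grey). The HNF1 half-site reaches 47.1% in the red bars against 17.3% over all peaks, and the extended half-site 29.4% against 44.0%.

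Half-sites outside peaks were common around all 10 genes. Within 30 kb of their start sites lay 27 copies of TCAAGGTCA, of which 1, that of Myo1a, was in a peak. Over the 21 chromosomes, 320 of 56720 copies (0.564%) were in a peak. A median of 2 copies lay within 30 kb of a protein-coding gene. Vil1 and Eps8 had 4 copies each near their start sites and none in a peak, and Cdhr2, without a peak, also had 4. Espn and Cdhr5 had 3 each, Pls1 had 2, and Myo7b was the only gene of the set with 0. Of the 165 copies of AAGGTCA around the set, 5 (3.03%) were in a peak, 3 at Ezr and 1 each at Myo1a and Krt20. Over the same chromosomes 1041 of 504476 copies (0.206%) were in a peak, and the median was 13 copies within 30 kb of a protein-coding gene. These shares in a peak are over unlike windows. Those of the set lie near chosen genes and hold its 17 peaks, while the others are over whole chromosomes. The share in a peak near other genes was not counted. The numbers of TCAAGGTCA copies overlapped between the genes with peaks (2 to 4) and those without (0 to 4). Copies were counted around every start site, so the length searched differed between genes. Eps8, for example, has 11 start sites and Cdhr2 has 1.

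A further list of 37 genes of the microvillus, the terminal web below it and apical trafficking was examined beside the set. Of these, 14 (37.8%) had a peak within 30 kb, with 22 peaks in all, and 6 had one within 1 kb. Over all protein-coding genes these shares were 8.75% within 30 kb and 2.08% within 1 kb, and the 8.75% stands beside each count by role that follows. The actin core gave 4 of 9 genes, the cytoplasmic actins Actb and Actg1 and the Eps8 relatives Eps8l1 and Eps8l2. Actb had 2 peaks, 121 and 2461 bp downstream of its nearest start sites, and Actg1 had 1 inside the gene, 704 bp upstream of an internal start site. The motors gave 3 of 7, with 2 peaks at Myh14, a nonmuscle myosin heavy chain, at 938 and 942 bp, 1 at Myo5b, a motor of apical vesicle transport, at 283 bp, and 1 near Myo1c that was at the start site of Crk.

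The membrane linkers gave 3 of 9. Slc9a3r1, which encodes the scaffold NHERF1 that binds ezrin, had 4 peaks, the most of this list, of which 1 was 827 bp downstream of its start site and 3 were nearer to Nat9. The scaffold gene Pdzk1 had 1, in sequence with a median of 45 copies, and Slk, a kinase that phosphorylates ezrin, had 1 at 874 bp upstream. The relatives of ezrin, Rdx and Msn, had none. The adhesion complex gave 1 of 3, Anks4b, with peaks at 13.2 kb downstream and 22.8 kb upstream, while Ush1c and Calml4 had none. The upstream Anks4b peak was nearer to Zp2, at 5804 bp. With Cdhr2, Cdhr5 and Myo7b, 1 of the 6 genes of the adhesion complex had a peak. The keratins and terminal web gave 2 of 6, Krt19 with 1 peak at 3303 bp and Plec, a linker of intermediate filaments, with 2. Apical trafficking gave 1 of 3, Stx3, a syntaxin of the apical membrane, at 24.6 kb. AAGGTCA was in 5 of the 22 peaks (22.7%), and TCAAGGTCA in 2 (9.09%), near Eps8l1 and Stx3, against 44.0% and 14.3% of all peaks. The Eps8l1 peak lay 162 bp from a start site of Rdh13, and the Stx3 peak was nearer to Mrpl16 than to Stx3.

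**Figure D5:**
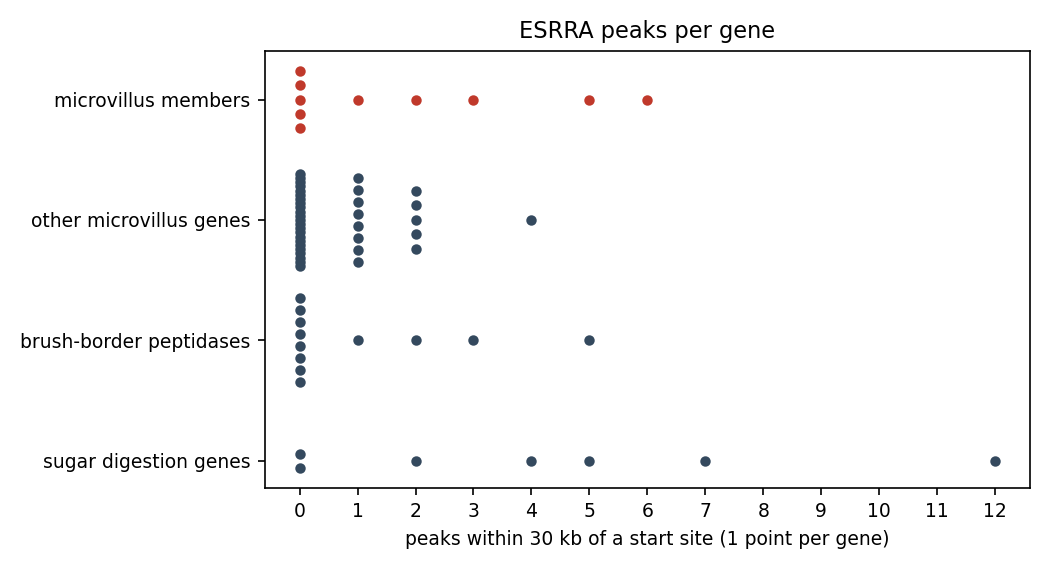
Each point is 1 gene, at its number of peaks within 30 kb of a start site (x axis), for the set of 10 (red) and 3 other lists of brush border genes (dark). The set reaches 6 peaks at Ezr, the other microvillus genes 4, the peptidases 5 and the sugar digestion genes 12.

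Side by side with other genes of the brush border, 4 of 12 peptidase genes (33.3%) and 5 of 7 genes of sugar digestion (71.4%) had a peak within 30 kb, against 8.75% of all protein-coding genes. The peptidases had 11 peaks and the sugar digestion genes 30. The most peaks of a single gene were 6 in the set, 5 among the peptidases and 12 among the sugar digestion genes. The differences between these short lists were not tested.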

How the data were processed

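ESRRA ChIP-seq was carried out on duodenal villus cells in 2 libraries, with 1 input library. According to the methods and the submitters' processing notes, the authors checked reads with FastQC 0.11.3, aligned them to mm9 with Bowtie2 2.2.6, merged both ChIP libraries with SAMtools 0.1.19 and called peaks with MACS2 at a p-value of 1e-05 (the MACS2 version is not given in the sources used here). The deposited values were the chromosome, start and end of each peak, with no score. All 1639 peaks were 601 bp wide, and how they came to have this width is not given in the sources used here. The sites listed with the study have differing widths, so 601 bp is not the extent of binding as called, and midpoints and shares of windows rest on the deposited width. The list gives no read depth for any library. Since the libraries were merged, it does not show which of them held a peak, and weak and strong peaks count alike.

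Coordinates were compared with mouse NCBI build 37 (mm9) and GENCODE M1. The midpoint of each of the 1639 peaks lay within its chromosome. Of 66 symbols in the gene lists 63 matched directly and 3, Stk26, Sptan1 and Sptbn1, through older symbols in a RefSeq table of another build, used for names only. Sequences were matched exactly on both strands, and TCAAGGTCA contains AAGGTCA, which contains AGGTCA. Flanking windows lay 2 kb from each side of a peak. Those that touched another peak or an assembly gap were left out. A peak was called multi-copy when its 24-base words had a median above 10 copies in the genome, and gaps within a run were measured between midpoints. Exon and intron numbers follow the coding transcript with the longest coding sequence. The 95% Wilson intervals allow for counting error only, and peaks near the same gene are not independent. Analyses used Python 3.11.15, numpy 2.4.6 and scipy 1.17.1. The functions were tested on simulated data with known answers.

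The genes, lists and sequences were chosen with earlier results of these data known. The rule for naming took all genes of the set, each gene of the further microvillus list with a peak within 30 kb, and any coding gene nearer to a peak of the set. Neighbours of the nearest peaks, relatives of ezrin, the remaining genes of the adhesion complex, and genes over a midpoint or near peaks of the further list were named after their values were seen. Alternative distances, start sites, peak edges, repeat filters and sequences were also run.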

Additional observations from a re-analysis of the deposited data

How the results depend on the processing

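The number of genes of the set with a peak within 30 kb, 5 of 10, ranged from 4 (most upstream start site only) to 7 (100 kb) over 9 alternatives, and the number of their peaks, 17, from 12 (10 kb) to 21 (100 kb) over 10. The number with a peak within 1 kb, 4, fell to 2, Ezr and Krt20, with the most upstream start site only, an alternative chosen after seeing the data, because Vil1 and Eps8 counted through internal start sites. Over all start sites, 5 genes of the set had a peak within 5 kb, where 3.38% of protein-coding genes had one. The share of protein-coding genes with a peak within 1 kb of the most upstream start site is not given here. The number of peaks with AAGGTCA, 5, was 4 in the central part of the peaks and 5 without multi-copy peaks, and 6 peaks held the shorter AGGTCA. The number with TCAAGGTCA was 1 in both of these settings, and 1 peak held TNAAGGTCA. Of the further microvillus list, 10 to 19 genes had a peak, against 14. The share of all protein-coding genes moved with the definition from 8.75% to 4.64% at 10 kb, 12.3% at 50 kb, 19.8% at 100 kb, 7.91% with the most upstream start site only, 8.32% with start sites of coding transcripts only, 10.3% with the whole gene plus 30 kb and 8.19% without multi-copy peaks. A stricter threshold and leaving out each ChIP library could not be run, since the list has no scores and 1 merged set of peaks. No paired analysis was possible because the only peak list pools the ChIP libraries. With depth and peak height unknown, a gene without a peak cannot be told from a gene with binding below the threshold.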
